A study of Mus musculus with 20 samples.

Results

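The genes described here encode the voltage-gated sodium and calcium channels and the potassium channels of the mouse brain, with their auxiliary subunits. Members were the protein-coding genes whose symbol begins with Scn followed by a number and a or b, with Cacna, Cacnb or Cacng, or with Kcn and a letter from a to v, and whose level averaged at least 1 FPKM over all 20 libraries. Kcnj8 and Kcne2 were left out by name. Of 45700 listed genes, 134 protein-coding genes matched by symbol, 32 of them averaged less than 1 FPKM, and 100 were kept. These were 10 sodium channel genes, 21 calcium channel genes and 69 potassium channel genes. The members were chosen by this average level and their names, and the level is therefore given below as a description only. The closest members inside the limit were Kcnj5 at 1.03, Kcnk13 at 1.08 and Kcns3 at 1.14 FPKM, and the closest genes outside it were Kcng2 at 0.967, Kcnh4 at 0.924 and Kcnh6 at 0.869 FPKM.

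RNA was measured in whole brains of “Taiwanese” SMA mice, a severe model of spinal muscular atrophy on a congenic FVB background. SMA mice carried no functional Smn copy and the human SMN2 transgene (Smn−/−; SMN2tg/0), and their control littermates were heterozygous for Smn and carried the same transgene (Smn−/+; SMN2tg/0), so that controls were not wild type. Brains were taken at the early-symptomatic stage, postnatal day 5, from 2 mice per genotype, and at the late-symptomatic stage, postnatal day 7, from 3 mice per genotype. Each mouse gave a library of total RNA, pooled from all fractions of a sucrose gradient, and a library of polysomal RNA, pooled from the fractions that hold polysomes. Smn1, the targeted gene, lay between 8.61 and 16.7 FPKM in the 10 control libraries and between 9.34 and 17.49 FPKM in the 10 SMA libraries. The genotypes overlapped, and because this value is read over the whole gene it does not check the labels. The whole brain holds many cell types, and fewer cells of a type cannot be told apart from less RNA per cell.

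Voltage-gated sodium channels carry the upstroke of the action potential, and each consists of a large pore-forming alpha subunit with smaller beta subunits. Voltage-gated calcium channels couple depolarisation to transmitter release, gene expression and pacemaking through a pore-forming alpha1 subunit that is trafficked by alpha2delta and beta subunits, whereas most brain gamma subunits are known chiefly as auxiliary subunits of AMPA-type glutamate receptors. Potassium channels repolarise the membrane and set its resting potential, and in the rodent brain the first postnatal weeks are the time when neurons gain mature, fast action potentials.

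Levels were read as FPKM, that is, fragments scaled to transcript length and to the mapped fragments of the library, and differences as differences of log2(FPKM + 0.1), which understate the change of genes at low levels. The 15247 genes with an average of at least 1 FPKM were tested together with limma. For genotype and translation efficiency a gene was called at an unadjusted p under 0.05, the threshold of the study, and for stage and fraction at a Benjamini-Hochberg adjusted p under 0.05. An exact permutation test of a single gene could not go below 0.333 with 2 mice against 2, nor below 0.1 with 3 against 3, so p-values come from limma throughout.

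The libraries differed in ways that bear on long genes. In each library the deviation of each gene from the average of its stage and fraction was ranked against the length of its longest transcript. At the early stage Spearman's rho over genes was −0.519 and −0.388 in the control total libraries, 0.579 and −0.058 in the SMA total libraries, −0.380 and −0.247 in the control polysomal libraries and 0.364 and 0.367 in the SMA polysomal libraries. Early SMA total replicate 1 stood apart from its partner, and the genotypes did not overlap on this measure at the early stage. At the late stage all 12 libraries lay between −0.160 and 0.178. Channel transcripts are long, with a median longest transcript of 4385.5 bases against 3488 bases over the protein-coding genes tested.

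Brain cell markers were present as the tissue label says. All 11 neuronal markers were tested, with Stmn2 the most abundant at an average of 1176 FPKM. Tubb3 was listed at 0 in both early control polysomal libraries. All 7 astrocyte markers (Aldoc the most abundant, 169 FPKM) and all 6 oligodendrocyte markers (Mbp, 143 FPKM) passed the same filter, and 1 of 5 skeletal muscle markers did (Acta1, 4.35 FPKM).

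Sodium channel genes held the highest levels per gene. Scn2a1, the main sodium channel alpha subunit of young axons, averaged 96.2 FPKM, and Scn3b, a beta subunit, averaged 74.2 FPKM. Scn8a (36.6 FPKM), the alpha subunit of mature axon initial segments and nodes, and Scn3a (36.3 FPKM), the alpha subunit best known from the embryonic brain, followed at about equal levels. Scn1a, the alpha subunit prominent in inhibitory neurons, averaged 11.8 FPKM, and Scn9a, the alpha subunit known from peripheral sensory neurons, 2.73 FPKM. Both lay far below Scn2a1.

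Among calcium channel genes the auxiliary subunits came first, with Cacng4 at 48.3, Cacna2d1 at 47.9 and Cacnb3 at 43.6 FPKM. The most abundant alpha1 gene was Cacna1b, which encodes the N-type channel of presynaptic terminals, at 27.7 FPKM. Cacna1g (25.9 FPKM), a T-type channel, and Cacna1a (23.9 FPKM), the P/Q-type channel, lay close to it, and Cacna1d, an L-type channel, was the lowest of the 8 alpha1 genes at 5.74 FPKM.

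Among the potassium channel genes Kcnq3, a voltage-gated alpha subunit, averaged 37.6 FPKM. Kcnip1 (31.5 FPKM), a calcium-binding subunit of A-type channels, was the most abundant auxiliary gene. Kcnma1 (25.7 FPKM) led the calcium- or sodium-activated channels, Kcnk9 (18.3 FPKM) the two-pore leak channels and Kcnj3 (15.5 FPKM) the inward rectifiers. Over the 100 genes the median level was 11.8 FPKM, against 11.1 FPKM over all genes tested. Of the members, 58 averaged over 10 FPKM and 13 over 30 FPKM, and these 13 made up 39.5% of the summed FPKM. No member was listed at 0 in any library. Kcnd1, Kcnj5, Kcns3 and Scn4b were among the members with an average under 1 FPKM in at least 1 group.

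From day 5 to day 7 more channel genes rose than fell in control brains, among them 5 of the 8 alpha1 calcium channel genes, 3 of the 4 sodium channel beta genes and 9 of the 32 voltage-gated potassium channel alpha genes in total RNA. The labels give no processing batch, so stage and batch cannot be told apart in any stage comparison. In control total RNA 27 members rose and 3 fell, where 11.8% of all genes tested rose, 9.46% fell and 21.2% were called in either direction. In control polysomal RNA 33 rose and 1 fell, where 12.3% of all genes rose, 8.3% fell and 20.6% were called. Leaving out 1 library left 0 or 1 member called in control total RNA, except late control replicate 3 (34), and between 0 and 14 in control polysomal RNA, the most without early control replicate 2. Without adjustment 51 and 48 members passed, where 40.3% and 42% of all genes did. The median change of the members was 0.29 in total and 0.37 in polysomal RNA on the log2 scale, against −0.03 in both over all genes tested. The summed FPKM of the members was 1297 and 1301 in the early control total libraries and 1649, 1623 and 1478 in the late ones. In polysomal RNA it was 1229 and 1246 early and 1762, 1683 and 1477 late. Every late control library lay above both early ones, and late control replicate 3 was the lowest of its group in both fractions. All 3 families had higher sums late. Potassium channel genes summed to 657 ± 1.17 FPKM (SD, n = 2) early and 806 ± 50.8 FPKM (n = 3) late in control total RNA, calcium channel genes to 390 ± 9.76 and 472 ± 19.4 FPKM, and sodium channel genes to 253 ± 10.9 and 305 ± 25.2 FPKM.

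Of the 8 calcium channel alpha1 genes, 5 rose in control total and 6 in control polysomal RNA. Cacna1i, a T-type channel, was 6.54 and 7.98 FPKM early and 13.5, 15.35 and 15.66 FPKM late in control total RNA, with no overlap between the stages, a difference of 1.02 ± 0.12 (SE; limma adjusted p = 0.0177). Cacna1a, the P/Q-type channel, rose by 0.73 in control total RNA and by 1.19 ± 0.16 in control polysomal RNA (adjusted p = 0.0236), from 12.79 and 12.71 to 33.69, 30.54 and 24.11 FPKM. Among the gamma subunits Cacng7 and Cacng5 rose in both fractions of the controls.

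Of the 32 voltage-gated potassium channel alpha genes 9 rose in control total and 13 in control polysomal RNA, and none fell. Among them were the Shaw-type genes Kcnc1 and Kcnc4, whose channels allow rapid firing. Kcnc4 in control total RNA was 8.33 and 7.93 FPKM early and 10.91, 13.11 and 11.52 FPKM late, a rise of 0.53 ± 0.10 (adjusted p = 0.0352), and in control polysomal RNA it rose by 0.74 ± 0.11 (adjusted p = 0.0259). Kcnd1, an A-type channel, rose by 1.05 and 1.38 in the control fractions, from low levels between 0.79 and 1.42 FPKM. Kcna1 and Kcna2, channels of the axon membrane next to nodes, rose in both control fractions as well. Kcnma1, the large-conductance calcium-activated channel, rose by 0.72 ± 0.10 in control total and 1.17 ± 0.12 in control polysomal RNA.

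Of the 10 sodium channel genes 3 rose and 2 fell in control total RNA. Of the 4 beta genes 3 rose in control total RNA, and the largest change of any member was that of Scn4b, a beta subunit of striatal and Purkinje neurons. Its level was 0.72 and 0.75 FPKM early and 3.04, 2.93 and 2.04 FPKM late, a rise of 1.71 ± 0.20 (adjusted p = 0.0173). In polysomal RNA of the controls Scn4b differed by 1.16 ± 0.33 and did not pass the adjusted threshold (adjusted p = 0.0725). Among the alpha genes Scn9a and Scn3a fell in control total RNA, Scn3a by 0.30 ± 0.06 on the log2 scale (adjusted p = 0.0337). Scn3a was 34.87 and 33.59 FPKM at day 5 and 27.84, 29.2 and 26.46 FPKM at day 7. Scn8a rose in control polysomal RNA, from 21.19 and 29.1 to 50.03, 62.45 and 45.42 FPKM, a difference of 1.07 ± 0.21 (adjusted p = 0.0377). Its difference in control total RNA was 0.37 ± 0.16 (adjusted p = 0.155).

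Of the 11 inward rectifiers 1 rose in total RNA of the controls, where 11.8% of all genes rose, and their median change was −0.07. The medians of the other potassium channel classes were 0.43 for the voltage-gated alpha genes, 0.29 for the two-pore channels, 0.17 for the calcium- or sodium-activated channels and 0.15 for the auxiliary genes, and no test compared the classes. The gene that rose was Kcnj10, the main inward rectifier of astrocytes and oligodendrocytes. Of the 7 astrocyte markers 2 rose in control total RNA and 0 in control polysomal RNA, and all 6 oligodendrocyte markers had positive differences in both with 0 called. Of the 11 neuronal markers 6 and 5 rose in the control fractions and 4 and 6 in the SMA fractions. Their summed level without Tubb3 went from between 990 and 1536 FPKM over the 8 early libraries to between 2123 and 2777 FPKM over the 12 late ones. Tubb3 was listed at 0 in both early control polysomal libraries, so a rise of Tubb3 there would rest on those values. The part of cell composition in the stage changes of the channel genes was not tested.

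In SMA brains the same stage comparison gave fewer calls in total RNA. There 7 members rose and 1 fell, where 3.45% of all genes rose, 2.11% fell and 5.56% were called in either direction. In SMA polysomal RNA 18 rose and 3 fell, where 12.6% rose, 10% fell and 22.7% were called. Without adjustment 31 and 49 members passed, where 32.7% and 41% of all genes did. Leaving out 1 library left between 0 and 7 members called after adjustment in total RNA and between 0 and 12 in polysomal RNA, the most in both without early SMA replicate 2. The medians of the members were 0.11 and 0.25, against −0.04 and −0.01 over all genes tested. With a correction for transcript length the medians in total RNA were 0.20 in SMA mice and 0.26 in controls. The summed FPKM of the members in SMA total RNA was 1609 and 1373 early and 1599, 1539 and 1556 late, so the stages overlapped because early SMA replicate 1 lay above all late libraries. In SMA polysomal RNA the sums were 1353 and 1411 early and 1657, 1578 and 1585 late, with no overlap. Of the members called in total RNA 6 were called in both genotypes, which is 20% of the 30 of controls and 75% of the 8 of SMA mice. In polysomal RNA 14 were called in both, 41.2% of 34 and 66.7% of 21, and in both fractions all of these changed in the same direction in both genotypes. Over all genes tested the shares were 19% and 72.5% in total and 50.1% and 45.4% in polysomal RNA, and 615 of 615 and 1559 of 1571 genes kept their direction.

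**Figure D1:**
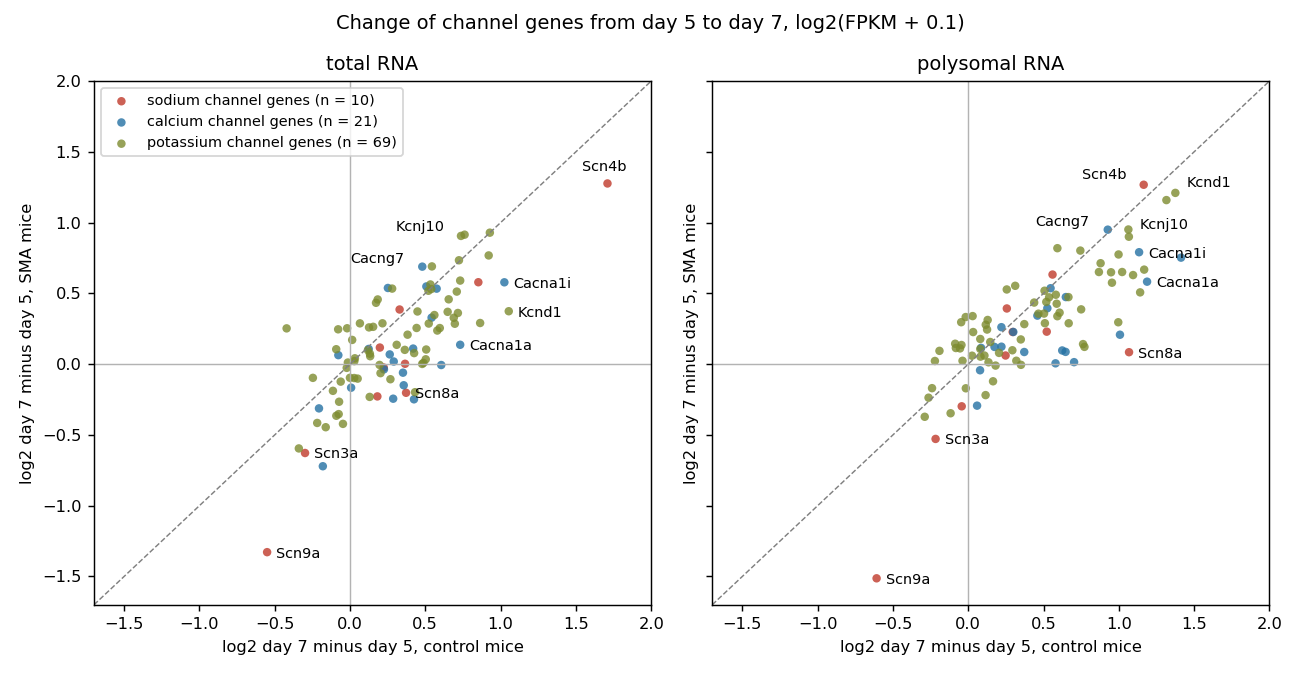
Change of each of the 100 channel genes from day 5 to day 7 on the log2(FPKM + 0.1) scale in control mice (horizontal axis) and SMA mice (vertical axis), for total RNA (left) and polysomal RNA (right); each point is a gene, coloured by family, and the dashed line marks equal change. In total RNA 74 points lie below the dashed line and in polysomal RNA 69, and Scn9a is the lowest point in both panels.

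Called in all 4 stage comparisons, always in the same direction, were 2.74% of all genes and 5 members, Cacng7, Kcnc4, Kcnip4 and Kcnj10, which rose, and Scn9a, which fell. The 250 bases before the annotated start of Cacng7, Kcnc4, Kcnj10 and Scn9a are shown because these genes changed with stage in both genotypes and fractions. Sequences are from RefSeq on GRCm38.p6, on the strand of the gene, at chr7:3332575-3332824 (plus strand), chr3:107458899-107459148 (minus strand), chr1:172340960-172341209 (plus strand) and chr2:66634963-66635212 (minus strand) in this order. Kcnip4 has 2 listed starts and is not shown. Capitals mark the GC box, GGGCGG on either strand.
Cacng7: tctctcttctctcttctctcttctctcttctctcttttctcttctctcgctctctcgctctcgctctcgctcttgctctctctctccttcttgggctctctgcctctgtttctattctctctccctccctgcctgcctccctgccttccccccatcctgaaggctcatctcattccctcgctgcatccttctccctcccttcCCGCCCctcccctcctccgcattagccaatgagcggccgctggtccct
Kcnc4: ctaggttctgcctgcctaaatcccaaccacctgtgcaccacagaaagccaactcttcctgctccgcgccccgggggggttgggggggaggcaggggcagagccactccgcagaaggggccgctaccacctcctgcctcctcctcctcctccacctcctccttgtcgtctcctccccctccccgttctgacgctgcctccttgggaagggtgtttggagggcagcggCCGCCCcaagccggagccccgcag
Kcnj10: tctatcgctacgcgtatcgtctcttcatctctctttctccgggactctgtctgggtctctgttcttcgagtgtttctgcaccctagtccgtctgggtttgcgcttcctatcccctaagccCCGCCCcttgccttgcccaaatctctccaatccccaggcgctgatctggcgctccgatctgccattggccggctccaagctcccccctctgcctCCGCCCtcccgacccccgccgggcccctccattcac
Scn9a: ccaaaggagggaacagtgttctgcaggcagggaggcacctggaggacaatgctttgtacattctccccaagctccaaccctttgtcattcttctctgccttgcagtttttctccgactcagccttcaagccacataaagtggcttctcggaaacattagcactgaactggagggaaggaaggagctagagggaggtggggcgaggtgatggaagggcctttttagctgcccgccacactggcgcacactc
The GC box occurred once before Cacng7, once before Kcnc4, at 2 places before Kcnj10 and not before Scn9a. Windows of this length before 32.7% of all 32851 listed starts held it, and 42.5% of the 106 starts of the 72 members that were matched by symbol. A match is a description of the letters and not a site of binding.

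Cacng7, whose product modulates AMPA-type receptors, was 16.64 and 15.11 FPKM early and 23.04, 21.61 and 21.84 FPKM late in control total RNA, a rise of 0.48 ± 0.06 (adjusted p = 0.02). In SMA total RNA it rose by 0.69 ± 0.08 (adjusted p = 0.0349), from 15.51 and 13.42 to 22.9, 23.33 and 23.73 FPKM. Stages did not overlap in any group, and the rises in polysomal RNA were 0.93 ± 0.14 in controls and 0.95 ± 0.07 in SMA mice. Kcnc4, a Shaw-type channel, rose by between 0.53 in control total RNA and 0.80 in SMA polysomal RNA. Kcnip4, a calcium-binding subunit of A-type channels, rose by between 0.74 and 1.00. Antisense genes that overlap Kcnip4 were also measured (Gm10025 averaged 7.80 FPKM), and the authors state default settings, under which TopHat and Cufflinks make no use of strand, so reads of the 2 strands cannot be told apart for the members with an antisense partner.

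Kcnj10 was 8.44 and 9.37 FPKM early and 14.18, 18.3 and 13.37 FPKM late in control total RNA, a rise of 0.76 ± 0.16 (adjusted p = 0.0447). In SMA total RNA it was 7.94 and 8.55 FPKM early and 17.17, 15.48 and 14.34 FPKM late, a rise of 0.91 ± 0.11 (adjusted p = 0.0336). All late values lay above all early ones in both genotypes.

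Scn9a moved in the opposite direction. In control total RNA it was 3.29 and 2.97 FPKM early and 2.07, 2.08 and 2.16 FPKM late, a change of −0.55 ± 0.09 (adjusted p = 0.0269). In SMA total RNA it was 5.67 and 4.41 FPKM early and 1.82, 1.97 and 2.01 FPKM late, a change of −1.33 ± 0.15 (adjusted p = 0.0334), and in SMA polysomal RNA the change was −1.51 ± 0.10 (adjusted p = 0.00926). Early SMA libraries held the highest values of all groups. Scn9a overlaps the antisense gene Gm13629, which was between 1.18 and 2.63 FPKM.

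**Figure D2:**
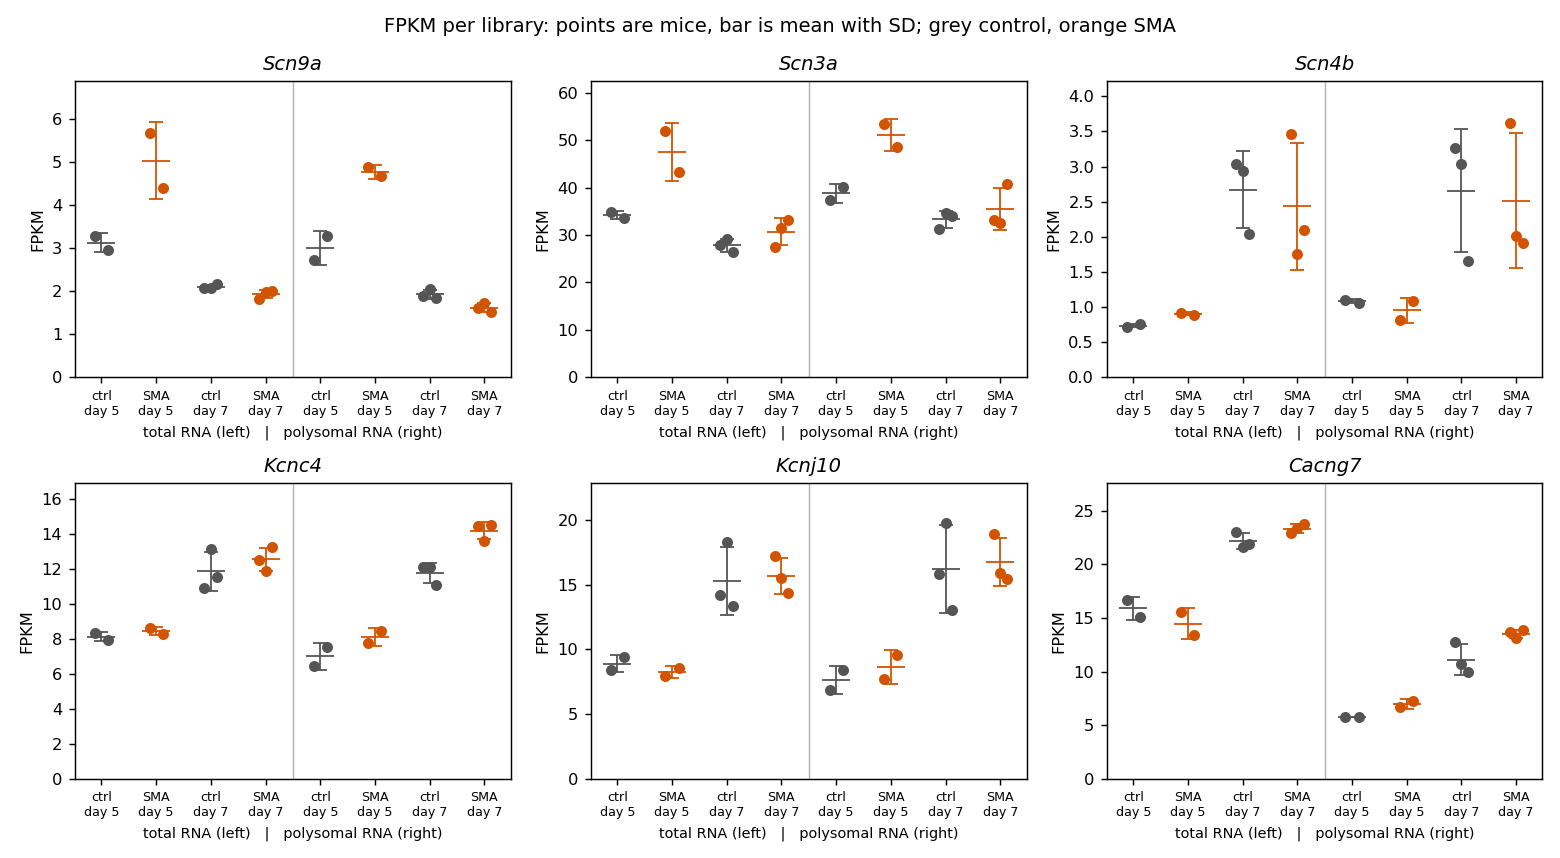
FPKM of Scn9a, Scn3a, Scn4b, Kcnc4, Kcnj10 and Cacng7 in every library, by genotype and postnatal day, with total RNA on the left and polysomal RNA on the right of each panel; points are mice, and bars give the mean with SD of 2 (day 5) or 3 (day 7) mice. Scn4b, Kcnc4, Kcnj10 and Cacng7 are higher at day 7 in both genotypes, Scn9a is lower, and Cacng7 is lower in polysomal than in total RNA.

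In addition to the members, 38 of 39 listed partners of these channels passed the filter, among them scaffolds of the axon initial segment, fibroblast growth factor homologous factors, pacemaker and leak channels and the sodium pump. In controls 12 of the 38 rose and 1 fell in total RNA, where 11.8% of all genes rose and 9.46% fell, and 14 rose in polysomal RNA, where 12.3% of all genes rose. Fgf12, a fibroblast growth factor homologous factor, rose by 0.75 ± 0.09 in control total RNA. Hcn3, a pacemaker channel gene, fell by 0.62 ± 0.09 on the log2 scale. In SMA total RNA 2 partners rose, Fgf12 and Atp1b2, and Hcn3 fell, where 3.45% of all genes rose and 2.11% fell, and in SMA polysomal RNA 9 rose, where 12.6% of all genes did.

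The difference between genotypes in the stage change was then tested as an interaction. In total RNA 13 members passed the unadjusted threshold, all with a negative interaction, that is, a change that was lower in SMA mice than in controls, where 5.6% of all genes did so in this direction and 10.1% in either. In polysomal RNA there were 15, again all in this direction, where 6.86% of all genes did so in this direction and 13.7% in either. After adjustment 0 members were called, where 0.125% and 0.597% of all genes were. The median interaction was −0.19 in total and −0.13 in polysomal RNA, against −0.02 and 0.01 over all genes tested, and with a correction for transcript length it was −0.09 and −0.07. The alpha1 calcium channel genes made up 5 and 6 of these members. Cacna1b, for example, went from 22.61 and 22.1 to 29.93, 27.87 and 28.2 FPKM in control total RNA, and from 34.74 and 29.23 to 29.06, 26.76 and 30.48 FPKM in SMA total RNA. The genotypes were thus apart at day 5 and overlapped at day 7, and the interaction was −0.51 ± 0.12 (unadjusted p = 0.0036, limma adjusted p = 0.486). The smallest p among the members was that of Scn9a in polysomal RNA, −0.90 ± 0.15 (unadjusted p = 0.00041, limma adjusted p = 0.0654).

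These interactions moved with transcript length. Over the 13067 protein-coding genes with a length Spearman's rho between length and the interaction was −0.548 in total and −0.498 in polysomal RNA, and over the members it was −0.603 and −0.565. With a correction for length within each library 4 members were called in each fraction, in total RNA 3 with a negative and 1 with a positive interaction and in polysomal RNA all 4 with a negative one. Without early SMA total replicate 1 the count in total RNA was 4, and without early SMA total replicate 2 it was 37.

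At the late stage SMA and control brains differed in single channel genes, in both directions. In total RNA 7 members were higher and 9 lower in SMA mice, where 9.54% of all genes were called, 4.84% higher and 4.7% lower. In polysomal RNA 9 were higher and 11 lower, where 10.7% were called, 5.35% higher and 5.38% lower. After adjustment 0 members were called in either fraction, where 0.111% and 0.0918% of all genes were. The medians of the members were −0.03 and −0.01, against 0.00 in both over all genes tested. Without late control replicate 3 the counts rose to 23 in total and 26 in polysomal RNA, without late control replicate 1 that in total RNA fell to 8, and without late control replicate 2 that in polysomal RNA fell to 7.

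Of all 15247 genes 2.79% had every late SMA library above every late control library in both fractions, and 4 members did, namely Kcnip1, Cacna2d2, Kcnn2 and Kcna5. In the opposite direction 2.61% of all genes and 5 members, Kcnj3, Kcnh5, Kcnj12, Kcnn1 and Scn9a, had every SMA library below every control library.

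Kcnip1 was 29.69, 31.08 and 31.49 FPKM in late control and 36.66, 38.92 and 40.09 FPKM in late SMA total RNA, a difference of 0.32 ± 0.05 (unadjusted p = 0.00076, limma adjusted p = 0.169). In late polysomal RNA it was 25.35, 24.6 and 27.96 FPKM in controls and 34.74, 31.72 and 34.25 FPKM in SMA mice, a difference of 0.37 ± 0.07 (limma adjusted p = 0.212). The genotypes were separated in both fractions. In early total RNA they overlapped, with 30.94 and 31.37 FPKM in controls and 29.21 and 35.73 FPKM in SMA mice. In early polysomal RNA, at 25.1 and 28.9 FPKM in controls against 29.9 and 32.24 FPKM in SMA mice, they did not overlap and the difference was not called.

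Cacna2d2, an alpha2delta subunit abundant in Purkinje cells, was 13.77, 14.25 and 14.04 FPKM in late control and 16.89, 17.85 and 19.37 FPKM in late SMA total RNA, a difference of 0.36 ± 0.06 (unadjusted p = 0.0018, limma adjusted p = 0.232). The difference in late polysomal RNA was 0.46 ± 0.12. At the early stage Cacna2d2 was 13.6 and 14.3 FPKM in control against 20.61 and 19.84 FPKM in SMA total RNA, a difference of 0.53 ± 0.07 (unadjusted p = 0.0041). Its early polysomal values, 14.51 and 11.96 FPKM in controls and 16.42 and 21.75 FPKM in SMA mice, also did not overlap, but their difference of 0.52 ± 0.20 did not pass the threshold (unadjusted p = 0.075).

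Kcnn2, a small-conductance calcium-activated potassium channel that shapes the afterhyperpolarisation, was the single member called higher in SMA mice in all 4 genotype comparisons. In total RNA it was 7.7 and 7.07 FPKM in controls against 10.44 and 9.53 FPKM in SMA mice early, and 10.34, 11.99 and 10.08 FPKM against 14.59, 15.28 and 13.54 FPKM late. In polysomal RNA it was 4.95 and 5.03 FPKM against 7.14 and 9.85 FPKM early, and 9.28, 10.71 and 9.24 FPKM against 14.06, 13.49 and 12.15 FPKM late. In each of the 4 comparisons every SMA library lay above every control library. The differences were 0.43 ± 0.11 and 0.74 ± 0.21 early and 0.42 ± 0.09 and 0.44 ± 0.09 late, and the limma adjusted p was 0.551, 0.386, 0.306 and 0.252 in this order. The 2 late calls held when any 1 library was left out, whereas the early calls were lost without either control replicate, and without SMA replicate 1 in total and SMA replicate 2 in polysomal RNA. The antisense gene A330093E20Rik, which overlaps Kcnn2, was between 4.6 and 9.47 FPKM. In polysomal RNA it moved with Kcnn2, at 4.91 and 4.6 FPKM in controls against 5.2 and 7.08 FPKM in SMA mice early. Late it was 4.94, 5.69 and 4.65 FPKM against 7.38, 8.42 and 7.04 FPKM. In total RNA its values overlapped between the genotypes at both stages. Reads of the 2 strands cannot be told apart, so the share of A330093E20Rik in the Kcnn2 values is unknown. Kcnn1, a channel related to Kcnn2, went the opposite way to Kcnn2, with −0.25 ± 0.09 in late total RNA (limma unadjusted p = 0.037). Every SMA library lay below every control library for Kcnn1 in all 4 comparisons. Kcnj12 shared this order, and 1.07% of all genes did, while 1.17% of all genes and 3 members, Cacna2d2, Kcna5 and Kcnn2, were higher in SMA mice throughout.

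Kcna5, a delayed rectifier at low level in the brain, was 1.5, 1.34 and 1.71 FPKM in late control and 2.9, 2.27 and 2.44 FPKM in late SMA polysomal RNA, a difference of 0.70 ± 0.13 (unadjusted p = 0.0029, limma adjusted p = 0.237). In late total RNA the difference was 0.55 ± 0.19 (unadjusted p = 0.033), and this call was lost without control replicate 2 or 3 and without SMA replicate 1 or 3. Kcnt1, a sodium-activated potassium channel, was 7.34, 8.01 and 7.45 FPKM in late control and 11.5, 9.69 and 8.63 FPKM in late SMA total RNA, a difference of 0.37 ± 0.12. Its late polysomal values overlapped.

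Among the members that were lower in late SMA brains, Kcnj3 encodes a subunit of the inward rectifiers opened by G proteins. It was 19.29, 19.56 and 16.96 FPKM in control against 15.73, 15.13 and 15.17 FPKM in SMA total RNA, a difference of −0.27 ± 0.07 (unadjusted p = 0.0088, limma adjusted p = 0.34). In polysomal RNA it was 19.78, 20.44 and 19.16 FPKM in controls and 17.38, 16.79 and 15.32 FPKM in SMA mice, a difference of −0.26 ± 0.06. The genotypes did not overlap late and did overlap early. An antisense gene that overlaps Kcnj3, Gm26794, averaged 1.46 FPKM. Kcnj6, which encodes a partner of Kcnj3 in the same channels, and Kcnj12 were also lower in total RNA, so 3 of 11 inward rectifiers were called lower there and 2 of 11, Kcnj3 and Kcnj2, in polysomal RNA, where 4.7% and 5.38% of all genes were lower.

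Kcnh5, a channel of the ether-à-go-go type, was 10.29, 9.27 and 7.11 FPKM in late control and 6.55, 6.73 and 6.19 FPKM in late SMA total RNA, a difference of −0.43 ± 0.15 (unadjusted p = 0.033). It was 11.23, 10.26 and 8.24 FPKM in late control and 7.93, 6.91 and 6.96 FPKM in late SMA polysomal RNA. Late control replicate 3 lay nearest to the SMA mice in both. The two-pore gene Kcnk12 was called lower in total RNA by −0.51 ± 0.11 (limma adjusted p = 0.307), from 2.13, 1.7 and 1.8 to 1.35, 1.18 and 1.32 FPKM, and overlapped in polysomal RNA. Cacna1g, a T-type channel, was lower by −0.24 ± 0.07 in total RNA, and Kcns3 and Kcnj2 by −0.36 and −0.25 in polysomal RNA. Kcns3 encodes a subunit that modifies other voltage-gated channels, and Kcnj2 a strong inward rectifier.

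Of the 6 sodium channel alpha genes 0 were called in late total RNA and 2, Scn8a and Scn9a, were called lower in late polysomal RNA, where 5.38% of all genes were lower. Scn9a had every SMA library below every control library in both late fractions. In polysomal RNA Scn8a was 50.03, 62.45 and 45.42 FPKM in controls and 40.41, 40.68 and 33.5 FPKM in SMA mice, a difference of −0.45 ± 0.14 (unadjusted p = 0.024, limma adjusted p = 0.402), with no overlap. Scn8a in total RNA overlapped, at 39.25, 34.61 and 33.77 FPKM in controls and 40.52, 34.08 and 24.79 FPKM in SMA mice. The late differences of Scn2a1 (−0.06 in total and −0.09 in polysomal RNA), Scn1a (0.09 and −0.01) and Scn3a (0.14 and 0.08) were not called, and the genotypes overlapped.

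**Figure D3:**
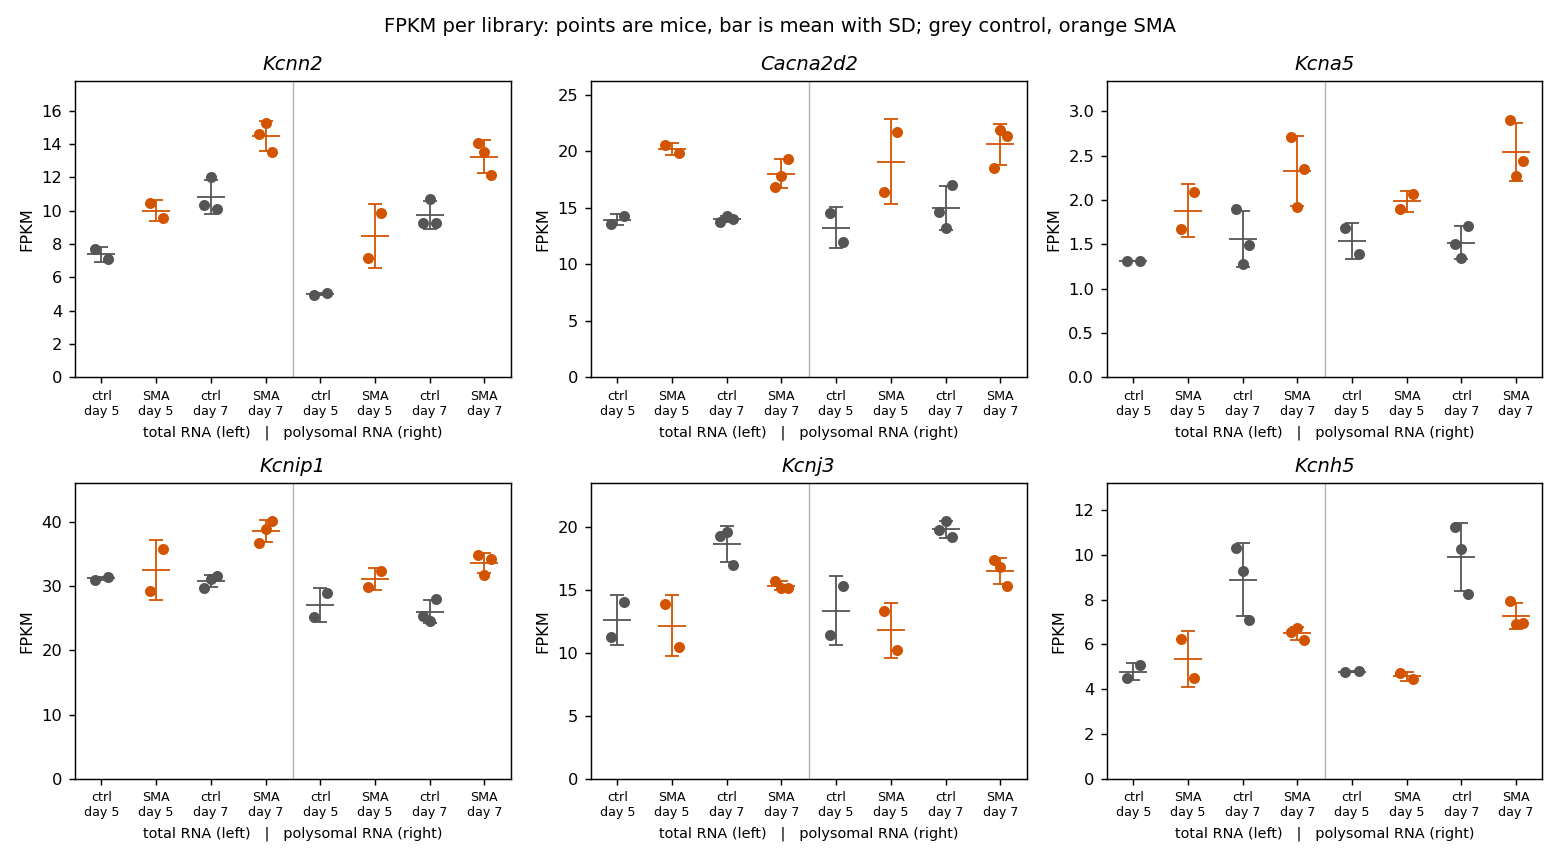
FPKM of Kcnn2, Cacna2d2, Kcna5, Kcnip1, Kcnj3 and Kcnh5 in every library, by genotype and postnatal day, with total RNA on the left and polysomal RNA on the right of each panel; points are mice, and bars give the mean with SD of 2 (day 5) or 3 (day 7) mice. At day 7 the SMA points of the first 4 genes lie above all control points and those of Kcnj3 and Kcnh5 below them, in both fractions.

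At the early stage the channel genes tended upwards in SMA brains, among them the sodium channel alpha and calcium channel alpha1 genes. In total RNA 12 members were higher and 0 lower, where 8.25% of all genes were called, 4.36% higher and 3.89% lower. In polysomal RNA 8 were higher and 1 lower, where 12.5% were called, 5.65% higher and 6.82% lower. After adjustment 0 members were called, where 0.164% and 0.649% of all genes were. The medians of the members were 0.14 and 0.18, against 0.01 and −0.01 over all genes tested. Every SMA library lay above every control library in both fractions for 31 members, where 13.8% of all genes did, and below for 5 members, where 13.9% did.

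All 6 sodium channel alpha genes and all 8 calcium channel alpha1 genes had positive differences in both fractions. Their medians were 0.45 and 0.44 for the sodium channel genes in total and polysomal RNA, and 0.46 and 0.45 for the calcium channel genes. Of the sodium channel alpha genes 3 were called in total and 2 in polysomal RNA, and of the alpha1 genes 1 and 4. Over all genes tested 4.36% and 5.65% were called higher. The inward rectifiers lay on the other side, with medians of −0.13 and −0.17 and 0 of 11 called in either fraction.

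Scn9a was 3.29 and 2.97 FPKM in control against 5.67 and 4.41 FPKM in SMA total RNA, a difference of 0.66 ± 0.19 (unadjusted p = 0.033). In polysomal RNA it was 2.73 and 3.29 FPKM in controls and 4.9 and 4.67 FPKM in SMA mice, a difference of 0.66 ± 0.16. The early order was the reverse of the late one, at which Scn9a in polysomal RNA was lower in SMA mice by −0.25 ± 0.08 (unadjusted p = 0.024). Scn3a was 34.87 and 33.59 FPKM in control against 51.87 and 43.28 FPKM in SMA total RNA, a difference of 0.47 ± 0.12, and was called in polysomal RNA as well. Scn1a was higher by 0.50 ± 0.12 in total RNA, and Scn2a1 and Scn8a, at 0.31 ± 0.13 and 0.43 ± 0.19, did not pass the threshold in either fraction.

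Among the calcium channel genes Cacna1b was called in total RNA (0.51 ± 0.11, unadjusted p = 0.017), and Cacna1g, Cacna1c, Cacna1d and Cacna1e in polysomal RNA. Cacna1g was 14.41 and 14.75 FPKM in control against 20.4 and 22.03 FPKM in SMA polysomal RNA, a difference of 0.54 ± 0.08 (unadjusted p = 0.005, limma adjusted p = 0.335). Cacna1c, an L-type channel, differed by 0.55 ± 0.11 in polysomal RNA. Among the potassium channel genes Kcnt1 had the smallest p in total RNA, with 8.02 and 8.17 FPKM in controls and 12.52 and 12.96 FPKM in SMA mice, a difference of 0.65 ± 0.09 (unadjusted p = 0.0036, limma adjusted p = 0.551). Kcne1l, an auxiliary subunit, was the single member called lower in polysomal RNA, by −0.28 ± 0.08. Of the 38 partners 8 and 4 were called higher in total and polysomal RNA and 0 lower, where 4.36% and 5.65% of all genes were higher, among them the axonal scaffold Ank3 (0.49 ± 0.16 and 0.58 ± 0.16) and Unc79, a subunit of the sodium leak channel (0.65 ± 0.14 and 0.59 ± 0.17).

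**Figure D4:**
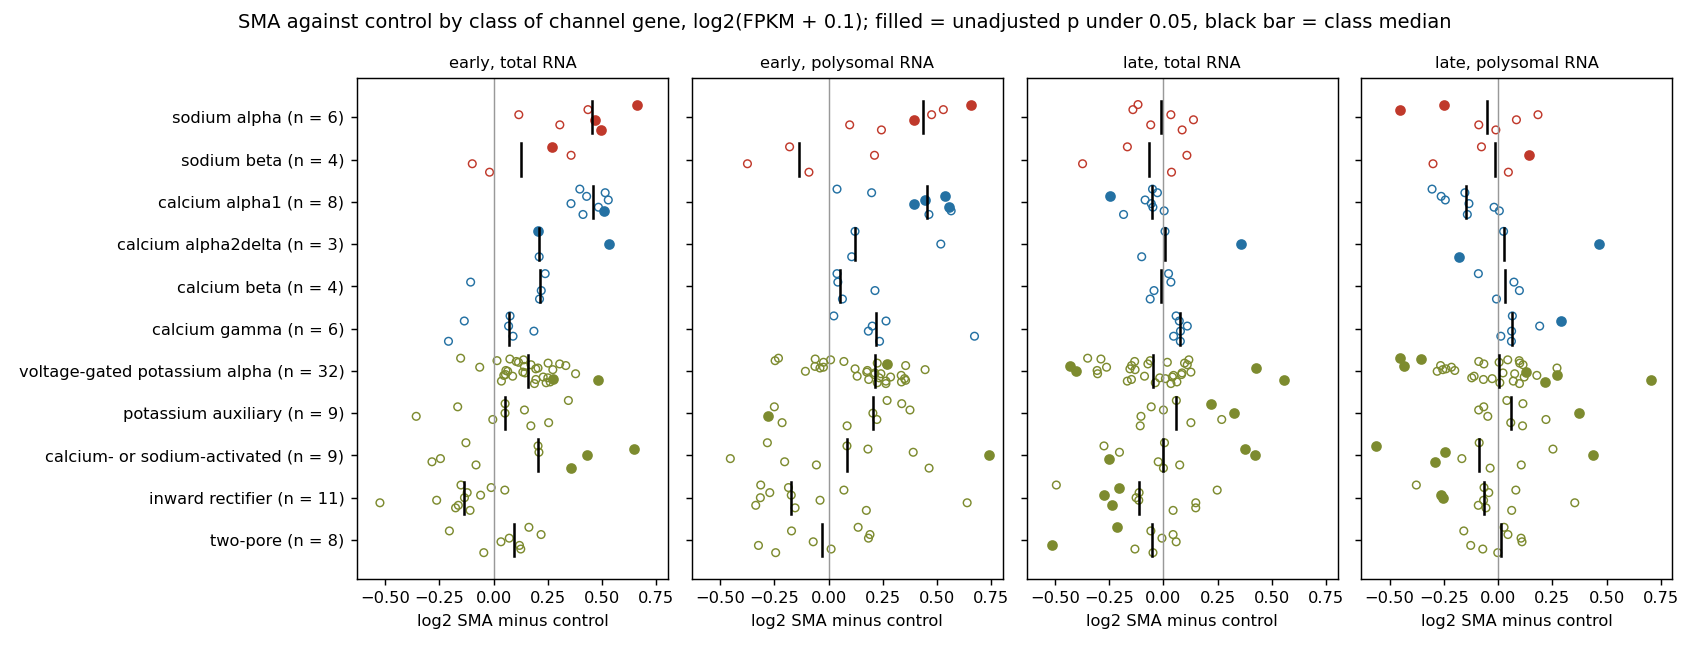
SMA minus control difference on the log2(FPKM + 0.1) scale for each channel gene (horizontal axis), by the 11 classes (vertical axis) and by stage and fraction (panels); filled points passed an unadjusted p under 0.05, and black bars are class medians. The sodium alpha and calcium alpha1 medians lie between 0.44 and 0.46 in both early panels and between −0.15 and −0.01 in both late ones.

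The early differences rose with transcript length over genes at large. Spearman's rho between the longest transcript and the early difference was 0.556 in total and 0.449 in polysomal RNA over 13067 protein-coding genes, and 0.607 and 0.410 over the members. Among the genes in the top length quartile, of at least 4940 bases, the median difference was 0.18 and 0.15, and for the 45 members among them it was 0.25 and 0.22. With a correction for length within each library the member medians were 0.05 and 0.06, and the counts 8 and 5. Of these, 7 and 4 were higher in SMA mice, against 12 and 8 without the correction, so calls were lost in both fractions. Corrected early differences of the named sodium channel alpha and calcium channel alpha1 genes, and of their classes, are not given here. Genotype and a length effect of the early libraries cannot be told apart here. At the late stage rho was −0.064 and −0.106 over the protein-coding genes, and −0.154 and −0.242 over the members. With the correction Kcnn2 differed by 0.41 in early total (unadjusted p = 0.015) and 0.75 in early polysomal RNA (unadjusted p = 0.02), and Cacna2d2 by 0.39 in early total RNA (unadjusted p = 0.01). Leaving out early control total replicate 1 left 0 members called in total RNA, and leaving out early SMA total replicate 2 gave 34.

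**Figure D5:**
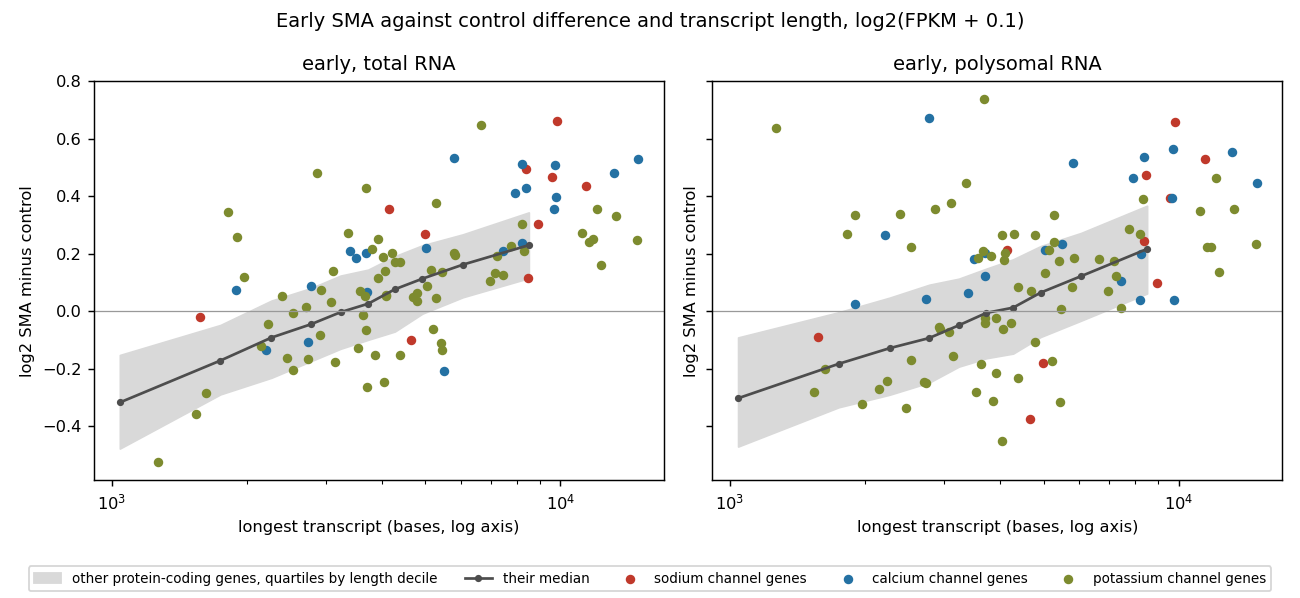
Early SMA minus control difference on the log2(FPKM + 0.1) scale against the longest transcript of a gene (log axis, bases), in total RNA (left) and polysomal RNA (right); coloured points are channel genes, and the line and grey band are the median and quartiles of the other protein-coding genes by length decile. The line rises from below 0 for short to above 0 for long transcripts in both panels, and most sodium and calcium channel genes sit in the upper right.

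Vascular markers moved with genotype throughout. All 5 endothelial markers, led by Cldn5 at an average of 33.2 FPKM, were called lower in SMA mice in early total RNA and in both late fractions, and 3 of 5 in early polysomal RNA, with none at 0 in any library. Their summed level in late total RNA was 56.66, 63.68 and 71.08 FPKM in controls and 33.64, 37.38 and 33.91 FPKM in SMA mice, and in early total RNA 88.26 and 79.85 FPKM against 41.68 and 37.4 FPKM. In polysomal RNA it was 151.75 and 106.63 FPKM against 61.22 and 44.61 FPKM early, and 75.42, 77.92 and 83.43 FPKM against 40.27, 47.3 and 39.55 FPKM late. Of 5 pericyte markers, led by Rgs5, 3 and 2 were called lower early and 5 and 5 late. Kcnj8, the pericyte channel gene that was left out, is one of them. Of the 11 neuronal markers 0 and 1 were called higher early, the 1 being Tubb3 with its values of 0, and 1 and 0 late. Of the 7 astrocyte markers 2 and 0 were called higher early and 1 and 1 late, and 0 were called lower. The late call was Aldoc, the most abundant of them, at 107.2, 131.88 and 120.55 FPKM in controls against 223.26, 196.43 and 193.96 FPKM in SMA total RNA, with no overlap. Of the 6 microglia markers 1 and 1 were called lower early, 2 were higher and 1 lower in late total RNA, and 2 were higher in late polysomal RNA. C1qa, the most abundant of these, was 14.63, 14.9 and 14.79 FPKM in late control against 27.23, 19.47 and 22.17 FPKM in late SMA total RNA. Summed over the list, the astrocyte markers were 517.6, 575.64 and 521.72 FPKM in late control and 757.28, 660.34 and 601.98 FPKM in late SMA total RNA. The microglia markers summed to 73.65, 76.44 and 70.15 FPKM and to 93.49, 71.47 and 77.29 FPKM in the same order. The first sums were separated and the second overlapped. Aldoc is part of the astrocyte sums, and each of the other astrocyte markers overlapped between the genotypes in late total RNA. The 6 oligodendrocyte markers, of which 0 were called in any of the 4, summed to 153.32, 378.95 and 384.86 FPKM in late control and 444.24, 384.4 and 235.18 FPKM in late SMA total RNA, and to 161.21 and 277.03 FPKM against 137.02 and 274.27 FPKM early. These sums overlapped between the genotypes and spread widely within groups, with replicate 1 below replicate 2 in both genotypes early. Of 4 choroid plexus markers tested 3 and 2 were called higher late. The part of cell composition in the genotype differences of the channel genes was not tested.

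Polysomal RNA was also compared with total RNA of the same mice. The fraction was called for 1 member in early controls, where 1.32% of all genes were called, for 2 in late controls, where 7.12% were, for 0 in early SMA mice, where 0.334% were, and for 6 in late SMA mice, where 11% were. At an unadjusted limma p under 0.05 the members numbered 26, 13, 5 and 24 in this order, where 25.9%, 25.3%, 12.6% and 29.6% of all genes passed. With the mouse as a block, taken from the numbering of the libraries, the counts after adjustment were 0, 1, 0 and 13. The share of all genes called with the block is not given here, so these counts cannot be compared with it. In late SMA mice the split was 2 higher and 4 lower in polysomal RNA without the block and 8 higher and 5 lower with it. Without any 1 replicate 0 members were called in late controls and 0 in late SMA mice, so that each late call named here needs all 3 mice. Cacng7 was called lower in polysomal RNA in 3 of the 4 groups, by −1.44 ± 0.10 in early controls (adjusted p = 0.0371), −0.996 ± 0.103 in late controls (adjusted p = 0.00977) and −0.78 ± 0.04 in late SMA mice (adjusted p = 0.00147), and its difference in early SMA mice was −1.04 ± 0.13 (adjusted p = 0.259). With the block the call in early controls was lost (adjusted p = 0.192) and the late ones held (adjusted p = 0.0397 in controls and 0.0216 in SMA mice). Its values in late controls were 23.04, 21.61 and 21.84 FPKM in total and 12.77, 10.68 and 9.91 FPKM in polysomal RNA, with no overlap. In late SMA mice Kcnmb4, the brain beta subunit of the large-conductance calcium-activated channel, was lower in polysomal RNA by −0.60 ± 0.10 and Kcnt2, a sodium-activated channel, by −0.59 ± 0.11, while Scn2a1 was higher by 0.21 ± 0.03, from 91.2, 89.76 and 91.25 to 105.4, 102.2 and 106.7 FPKM. The antisense genes Kcnmb4os1 and Kcnmb4os2, which overlap Kcnmb4, averaged 13.8 and 7.17 FPKM. Both were also lower in polysomal RNA of late SMA mice. Kcnmb4os1 was 13.35, 13.85 and 13.64 FPKM in total and 9.14, 8.74 and 8.88 FPKM in polysomal RNA. Kcnmb4os2 was 7.97, 8.71 and 7.95 FPKM against 5.26, 4.9 and 6.85 FPKM.

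The change in translation efficiency (TE), the genotype difference of the log2 ratio of polysomal to total RNA, was called for 2 members early, where 2.32% of all genes were called, and for 1 late, where 2.07% were. By direction, 1.26% of all genes rose and 1.06% fell early, and 1.09% rose and 0.977% fell late. After adjustment 0 members were called in either stage, where 0.617% and 0.0394% of all genes were. Early, TE fell in SMA mice for Kcnt1 (−0.47 ± 0.13, unadjusted p = 0.013, limma adjusted p = 1) and rose for Cacng7 (0.40 ± 0.15, unadjusted p = 0.042). Late, it rose for Kcnk9, a two-pore leak channel, by 0.24 ± 0.09 (unadjusted p = 0.022). Kcnk9 was 18.95, 19.96 and 19.17 FPKM in control against 15.63, 16.65 and 17.86 FPKM in SMA total RNA, but 21.59, 20.91 and 20.14 FPKM against 19.99, 22.91 and 21.01 FPKM in polysomal RNA, so the genotypes were separated in total RNA only. With the mouse as a block the counts were 1 early, Kcnt1, and 4 late, and the share of all genes with the block is not given here.

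Over the 4 genotype comparisons 58 of the 100 members were called in none, where 69.3% of all genes were, and 8 were called at least 2 times in a single direction, where 7.11% of all genes were. Of the members Kcnn2 was higher in 4, where 0.19% of all genes were, Cacna2d2 and Kcna5 in 3, and Kcnip1, Kcnt1 and Scn3a in 2, while Kcnh5 and Kcnj3 were lower in 2. Scn9a and Cacna1g were called in both directions, higher early and lower late, where 0.741% of all genes were called in both directions.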

How the data were processed

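RNA of 10 mouse brains was sequenced by the study as total and polysomal RNA, 20 libraries in all, with the TruSeq Stranded Total RNA kit. Per the labels and the study's methods, the authors mapped reads to GRCm38.p4 with TopHat 2.0.14, guided by Gencode M6, and Cufflinks 2.2.1 gave the FPKM values they deposited, 1 value per gene and library, normalized to transcript length and mapped fragments. The table holds no counts, so the depth behind a value is unknown and no counting interval or detection floor was computed. Columns were matched to samples by name, and 0 columns were left without a sample. Genotype, fraction, stage and replicate numbers come from the sample labels.

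Values were analysed as log2(FPKM + 0.1) for the 15247 genes averaging 1 FPKM or more, using R 4.3.3 and limma 3.58.1 (lmFit, eBayes with trend), with Benjamini-Hochberg adjustment over all of them. Each comparison used the libraries of its own groups, and interactions used the 4 groups concerned. The study used CuffDiff and Xtail, which need alignments or counts. The fitting was checked on simulated data with independent noise in each library. These data held no effect of transcript length and no deviation shared by libraries of a mouse, so the check does not bear on either. Alternatives were a pseudocount of 1, no filter, a filter at above 0 FPKM in every library, equal library medians, 1 model over all libraries, a replicate block, a lowess correction for transcript length with a span of 0.3, the other p threshold, and leaving out each library.

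Total and polysomal libraries with the same number deviated together in all 10 pairs (r between 0.102 and 0.559, against at most 0.0868 for other pairings). The numbers were therefore taken to pair them. In early groups of 2 mice the deviations from the group mean mirror each other. Each early genotype thus gives a single r, 0.135 in controls and 0.102 in SMA mice, close to the limit of 0.1. Centring on the group mean also lowers r for the other pairings. The fits whose errors and p-values are printed for fraction and TE have no block for the mouse, and the counts with the block stand beside them. The members, classes and lists of partners and markers were chosen with earlier results of these data known. Named genes were the most abundant member of each class, up to 3 members per direction with the smallest p in genotype, TE and interaction comparisons and up to 4 with the largest difference in stage and fraction comparisons (called and, outside interactions, without overlap of groups), the brain sodium channel genes Scn1a, Scn2a1, Scn3a and Scn8a, the 3 genes on each side of the limit, and Kcnj8 and Kcne2. Other genes named were chosen after their values were seen. Results for some genes that this rule names are not reported here.

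Gene lengths and overlaps come from Gencode M21 on GRCm38, where 51 members overlap another listed gene and 25 of them one of at least 1 FPKM. Promoters come from RefSeq on GRCm38.p6.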

Additional observations from a re-analysis of the deposited data

Results flagged for a closer look

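Genotype differences of the stage change (SMA change from day 5 to day 7 minus control change, log2 scale) drew attention because the interaction itself passed an unadjusted p under 0.05. The 3 members with the smallest p are given for each fraction. No limma adjusted p was under 0.05. In total RNA these were Scn9a, the sodium channel alpha gene that fell in both genotypes (−0.78 ± 0.17, unadjusted p = 0.0022, limma adjusted p = 0.486), Cacna1b, the N-type calcium channel (−0.51 ± 0.12, unadjusted p = 0.0036), and Kcna6, a voltage-gated potassium channel (−0.34, unadjusted p = 0.013). In polysomal RNA they were Scn9a (−0.90 ± 0.15, unadjusted p = 0.00041, limma adjusted p = 0.0654), Scn8a (−0.98 ± 0.25, unadjusted p = 0.0053) and Cacna1d, an L-type calcium channel (−0.53 ± 0.13, unadjusted p = 0.0045). With a correction for transcript length Scn9a had −0.53 in total RNA (unadjusted p = 0.012) and −0.64 in polysomal RNA (unadjusted p = 0.0026), Scn8a −0.68 (unadjusted p = 0.01) and Cacna1d −0.27 (unadjusted p = 0.042). The corrected values of Cacna1b (−0.26, unadjusted p = 0.056) and Kcna6 (−0.19, unadjusted p = 0.094) no longer passed the threshold. Antisense genes overlap Cacna1d (Dcp1a, 4.65 FPKM on average) and Kcna6 (Gm26673, 9.87 FPKM). Dcp1a was 3.33 and 3.75 FPKM in early control and 3.95 and 4.45 FPKM in early SMA polysomal RNA. Gm26673 was 8.99 and 8.42 FPKM in early control and 11.68 and 10.07 FPKM in early SMA total RNA. Their share in the values of the 2 members is unknown.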

How the results depend on the processing

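Counts of called members moved with several choices, and 0 of the 127 calls of genes that were recomputed singly reversed direction under any alternative run. Many were weaker, namely 72 of the 127 with the replicate block and 68 with length correction and block. With no filter 39 were weaker, and with length correction 37. The cause of these moves was not tested. The lack of reversals says little for several of the runs. Outside the stage comparisons the replicate block fits the same differences as the main run, and 1 model does so throughout. Leaving out 1 library cannot reverse a difference between groups that do not overlap. With adjusted p-values 0 members were called in the 4 genotype comparisons, both TE comparisons and both interactions. For SMA against control in early total RNA (12) the counts were 19 with 1 model over all libraries, 7 with the replicate block and 3 with length correction and block, and for early polysomal RNA (9) they were 17 with no filter, 17 with every library above 0, 28 with 1 model, 5 with length correction and 5 with length correction and block. Late polysomal RNA (20) gave 13 with the block, with or without length correction. Member medians of the early differences moved to 0.05 in total and 0.06 in polysomal RNA with length correction, with or without the block. The change in TE gave 1 early with every library above 0, with the block and with length correction, 4 with 1 model and 0 with length correction and block, and 0 late with 1 model and 4 with the block, with or without length correction.

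For day 7 against day 5 the block joined different mice that shared only a replicate number, so its counts do not rest on a real pairing. Control total RNA (30) gave 11 with no filter, 0 with the block and 51 without adjustment. Control polysomal RNA (34) gave 7 with no filter, 53 with 1 model, 0 with the block and 22 with length correction and block, and the block moved its median to 0.47. SMA total RNA (8) gave 21 with every library above 0, 14 with equal library medians, 34 with 1 model, 0 with the block, 22 with length correction, 0 with both and 31 without adjustment. SMA polysomal RNA (21) gave 9 with no filter, 40 with every library above 0, 38 with 1 model, 0 with the block, 0 with length correction and block and 49 without adjustment. For polysomal against total RNA, early controls (1) gave 6 with every library above 0, 19 with 1 model, 0 with the block and 26 without adjustment. Late controls (2) gave 1 with a pseudocount of 1, no filter, the block, or length correction and block, and 13 without adjustment. Early SMA mice (0) gave 7 with 1 model and 5 without adjustment, and late SMA mice (6) gave 3 with no filter, 3 with 1 model, 13 with the block, 10 with length correction and block and 24 without adjustment. The interactions (13 and 15) gave 4 and 4 with length correction and 8 and 7 with length correction and block.

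Without 1 library the counts ranged from 0 to 34 and 5 to 10 early (total, polysomal), from 8 to 23 and 7 to 26 late, from 1 to 6 and 0 to 6 for TE, from 0 to 34, 0 to 14, 0 to 7 and 0 to 12 for stage (control total, control polysomal, SMA total, SMA polysomal), from 1 to 11, 0 to 0, 1 to 18 and 0 to 0 for fraction (control early and late, SMA early and late) and from 4 to 37 and 7 to 24 for the interactions. Where 1 library was left in a group it was assumed to vary like the others. In the early fraction comparisons 1 library was left on each side. Their ranges have no spread within groups behind them, and no conclusion is drawn from them. Same-numbered control and SMA mice shared only a number, with r between −0.222 and 0.227 and 2 of 10 pairs over 0.1.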

Other observations

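Kcnj8, a potassium channel gene of pericytes, and Kcne2, a subunit gene of the choroid plexus, were not counted among the members and averaged 1.70 and 2.21 FPKM over the 20 libraries. Kcnj8 was lower in SMA mice in late total RNA (−0.72 ± 0.10, limma adjusted p = 0.18) and late polysomal RNA (−0.64 ± 0.11, limma adjusted p = 0.204), and Kcne2 was higher in late total RNA (0.37 ± 0.09, limma adjusted p = 0.344), all by the unadjusted threshold. Early, Kcne2 was in the opposite order, at 3.02 and 2.62 FPKM in control against 2.02 and 2.26 FPKM in SMA total RNA, a difference of −0.38 ± 0.14 that was not called. Among the partners of the channels, Cntnap2, which anchors potassium channels beside the node, was higher in early and late total RNA (0.27 ± 0.08 and 0.32 ± 0.07), and Fgf11, a fibroblast growth factor homologous factor, was lower in late total and polysomal RNA (−0.29 ± 0.08 and −0.32 ± 0.09). After adjustment 0 of the 38 partners were called in any of the 4 genotype comparisons by limma, whereas 8, 4, 5 and 3 passed the unadjusted threshold (early total, early polysomal, late total and late polysomal RNA), beside 8.25%, 12.5%, 9.54% and 10.7% of all genes tested.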
